A study of Mus musculus with 2 samples.

Results

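The genes of osteocrin and of the natriuretic peptide system were followed in 661W, a mouse cell line that the labels call a photoreceptor line. The members were all array spots named Ostn, Nppa, Nppb, Nppc, Npr1, Npr2 or Npr3, which gave 7 genes of 29607 on the array, each with 1 probe, on 16 of the 43020 spots that are not controls. The group was chosen by its most unequal gene, because Ostn was bright on 1 array only. The values of Ostn are therefore a description and support nothing beyond themselves.

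The study compared media with and without choline. Cells were kept for 3 days in DMEM/F12, with fetal bovine serum and antibiotics in both, and the medium either lacked choline (choline-deficient) or held it (choline-sufficient, 8.98 g/L as the labels write it, a figure high for a medium whose unit may be a slip). Each condition was hybridised once, as Cy3-labelled total RNA on 1 single-colour Agilent array, and both arrays lay on the same slide. The design text speaks of RNA pooled from 4 dishes, without saying whether that was per condition. The arrays are called the deficient and the sufficient array below. Because each group is 1 array, the differences could not be set against replicates, and p-values are left out. Values after ± come from the scanner software, cover the reading of the array and leave out the spread between cultures. In RNA of a whole culture, fewer cells of a kind and less RNA per cell cannot be told apart.

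Natriuretic peptides are secreted hormones with a ring-shaped core. ANP and BNP, the products of Nppa and Nppb, act on the receptor NPR1, and CNP, the product of Nppc, acts on NPR2. Both receptors are membrane guanylyl cyclases that make the messenger cGMP, which is also the messenger of phototransduction in rods and cones. NPR3 has no cyclase and is known as the clearance receptor, because it binds and internalises all 3 peptides. Osteocrin, also called musclin, is a secreted peptide first known from bone and muscle. It carries stretches that resemble the natriuretic core and binds NPR3, which can leave more natriuretic peptide for the cyclase receptors.

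The probe that reads Ostn (NM_198112) lies on mm9 at chr16:27324816-27347014, plus strand. Its 60 bases are thus spread over 22199 bases of the genome, across an intron. It is shown because the largest difference of the family rests on this probe alone, beside 2 others of the family. The Nppb probe (NM_008726) lies at chr4:147360489-147360548, plus strand, and belongs to a peptide gene seen on both arrays. The Npr1 probe (NM_008727), at chr3:90259171-90259664 on the minus strand, also crosses an intron and was well above background on neither array. Exon and UTR annotation of mm9 was not used here.

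Ostn: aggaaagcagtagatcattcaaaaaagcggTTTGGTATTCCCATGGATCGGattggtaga

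Nppb: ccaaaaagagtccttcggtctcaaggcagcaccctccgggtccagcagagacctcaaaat

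Npr1: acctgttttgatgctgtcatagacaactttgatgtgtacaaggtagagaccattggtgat

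The capitals in the Ostn probe, bases 31 to 51, mark the natriuretic-type core in the first reading frame. The pattern searched was a phenylalanine and a glycine codon, 3 codons of any kind, then an aspartate and an arginine codon. In all frames and on both strands, it was found in 9 of 39429 probes (0.0228%), and in 1 of the 7 member probes, that of Ostn. A match is a property of the letters and not of binding. The longest run of bases that the Ostn probe shared with the probe of another gene was 14, where the other member probes had runs of 13 to 18. That gene was Sla, itself lower on the deficient array (log2 difference -1.35). Whether this run adds to the Ostn signal was not tested. The GC content of the Ostn probe was 41.7%, the same as the median of all probes.

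Ostn was the ligand with the large difference. Its processed intensity was 4.41 ± 1.14 on the deficient array and 243 ± 24.4 on the sufficient array. The software called the second of these spots well above background, and not the first. Relative to each array's 75th percentile of intensity, the scale used for all log2 levels here, the levels were -8.51 and -2.39. The bound on the Ostn difference was 69.4-fold lower on the deficient array, or -6.12 ± 0.40 in log2. A bound sets the bright spot against the dim spot's own signal, or against the lowest signal called well above background on that array where this is higher. On the deficient array that lowest signal was 4.16, just under the Ostn signal, so the bound equals the ratio of the scaled signals. For Ostn it is thus an estimate against a dim spot, and smaller folds lie within its reading error. Ostn lay above that lowest signal and was still not called, so the signal is not a detection limit. Bounds of other genes are therefore estimates too, and not guaranteed minimum folds. Only the bound of Ostn was worked out under other background treatments.

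The size of the Ostn difference depended on how background was treated. Its direction is fixed by the definition of the bound, so the alternatives run do not test it. The bound was 10.4-fold without background subtraction and 5.70-fold after normexp correction. That correction adds a constant of 50 to every spot and so narrows ratios to dim spots. Before any correction the spot's mean signal was 31.0 against a local background of 24.0 on the deficient array. It was 255 against 24.0 on the sufficient array. Neither spot carried an outlier flag, and they were read over 64 and 69 pixels. The 6 nearest spots on the slide ran from 2.13 to 6818 on the deficient array and from 1.70 to 4781 on the sufficient array. Bright spots thus lay beside Ostn on both arrays.

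**Figure D1:**
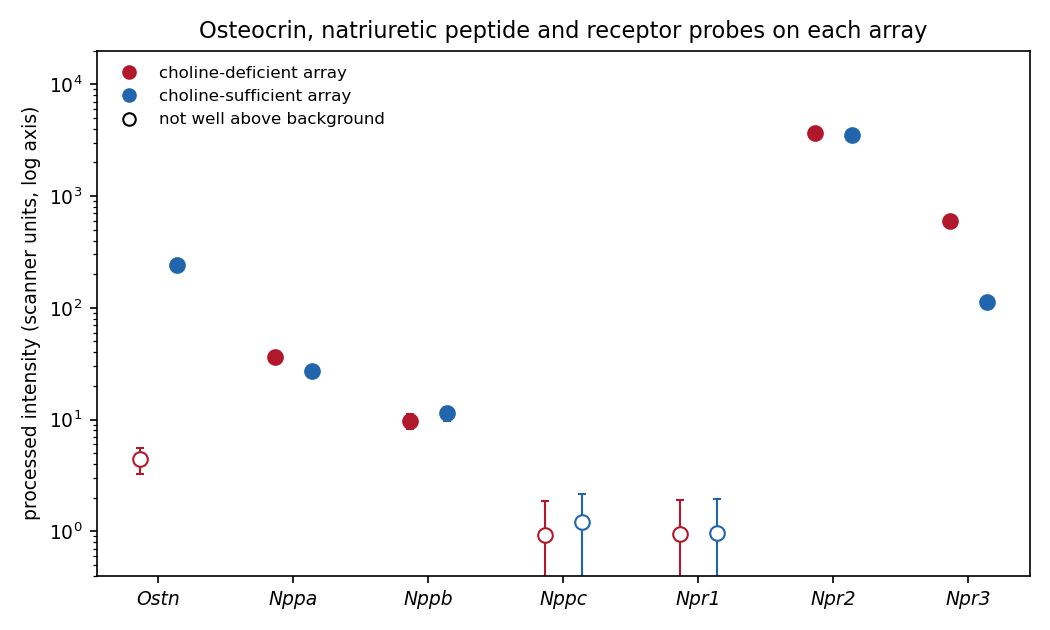
Processed intensity (scanner units, log axis) of the 7 member probes on the deficient (red) and sufficient (blue) array, with the scanner software's error as bars; open points were not well above background. Ostn stood at 4.41 and 243 and Npr3 at 599 and 112; heights of different probes are not comparable, the Nppa points are means of 10 spots, and the lower bars of Nppc and Npr1 run off the axis.

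Few genes showed the pattern of Ostn. Of all genes on the array, 1.22% were well above background on the sufficient array only and 3.35% on the deficient array only. Among the 301 genes with 1 probe, a signal on the sufficient array only and a bound, the median bound was 1.87-fold and 10 genes had one of at least 10-fold. Ostn had the largest bound of these 301, and it was chosen for this difference. The 5 named genes closest to it, by the distance between log2 bounds over the 2 arrays, were Ppef1, Prr32, Hrk, Nyx and Slx. A gene-model name at rank 4 of the 301 and a probe without a symbol at rank 5 were passed over. Ppef1, a calcium-binding protein phosphatase gene, was at 3.12 and 177 in intensity on the deficient and sufficient arrays. Its bound was 53.4-fold lower on the first. Prr32 followed at 47.9-fold. Hrk, a BCL2-family death activator gene, had a bound of 17.1-fold and Nyx, a retinal proteoglycan gene, one of 14.9-fold. The bound of Slx was 13.7-fold.

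Osteocrin is best known from muscle and bone, and markers of both were looked at beside it. Of 17 skeletal muscle markers 10 were measured on both arrays, that is well above background on each. Of these, 2 were at least 1.5-fold higher on the deficient array (Tnnc2 at 3.26-fold, or 1.83-fold after normexp correction, and Acta1 at 2.65-fold) and 1 was lower (Myf6 at 1.80-fold, or 1.38-fold after normexp correction). Over all measured genes 14.8% were higher and 14.1% lower by this size. The myogenic factor genes Myod1 and Myog, named after their values were seen, differed by 0.06 ± 0.30 and -0.30 ± 0.46 in log2. Ckm, Actc1, Ttn and Myf5 were well above background on neither array. Cav3 was so on the sufficient array only, with a bound of 1.85-fold higher there, and Myh3 and Tnnt3 on the deficient array only. The summed intensity of this list was 697 on the deficient and 273 on the sufficient array, of which Acta1 made up 417 and 125 and Tnnc2 157 and 38.2. The median log2 difference of the 10 measured genes was -0.08, against -0.10 over all genes.

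Of 12 osteoblast and osteocyte markers 9 were measured, with 4 higher on the deficient array (44.4%) and 1 lower (11.1%), against 14.8% and 14.1% of all measured genes. Their median log2 difference was 0.15. Spp1 was 7.87-fold, Phex 2.44-fold and Runx2, the osteoblast transcription factor gene, 2.13-fold higher, whereas Alpl was 1.75-fold lower. Bglap2 was 1.96-fold higher, or 1.26-fold after normexp correction. The 2 measured Runx2 probes differed by 0.14 and 2.05 in log2. The late bone genes Ibsp, Dmp1 and Sost were well above background on neither array. The summed intensity was 10096 against 1298, of which Spp1 made up 9421 and 952. These sums are of intensities before scaling between arrays. The part of either cell type in the Ostn difference was not tested.

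Nppa, the gene of ANP (NM_008725, mm9 chromosome 4, 147376024 to 147376083), was printed in 10 spots per array. Its intensities ran from 33.0 to 38.3 with a median of 36.3 on the deficient array, and from 22.7 to 30.8 with a median of 28.0 on the sufficient array. These ranges do not overlap. The deficient array was the brighter one, with a 75th percentile of 1609 against 1280. After scaling, the log2 levels ran from -5.61 to -5.39 and from -5.82 to -5.37, and the ranges overlapped. The mean difference over the 10 spots was 0.09 ± 0.14 (SD between spots), with 8 spots higher and 2 lower on the deficient array, and it turned to -0.17 after normexp correction. These spots share 1 RNA per array and measure only the array's own error.

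**Figure D2:**
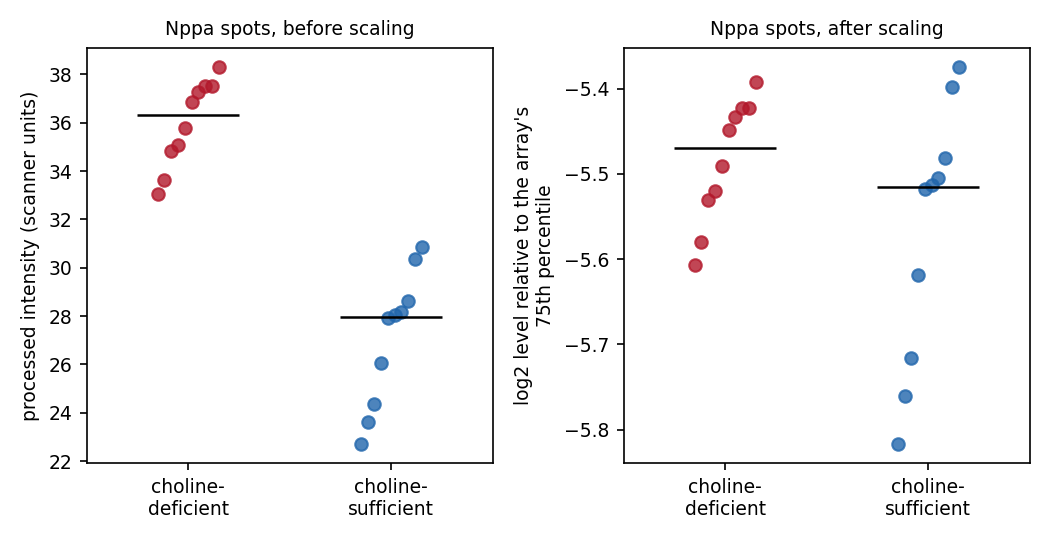
The 10 Nppa spots of each array, as processed intensity (left, scanner units) and as log2 level relative to the array's 75th percentile (right); lines are medians. The intensities of the arrays do not overlap (33.0 to 38.3 against 22.7 to 30.8), while the scaled levels do.

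Nppb, the gene of BNP, was dim on both arrays. Its intensities were 9.77 ± 1.53 on the deficient array and 11.4 ± 1.61 on the sufficient array, both well above background. The log2 difference was -0.55 ± 0.30, or 1.47-fold lower on the deficient array, just inside the 1.5-fold size used to call a difference. It passed that size at 1.59-fold when the arrays were scaled to their medians. Nppc, the gene of CNP (NM_010933, mm9 chromosome 1, 88563020 to 88563079), gave 0.933 ± 0.929 and 1.21 ± 0.933. Both signals were at about the size of their error, neither was well above background, and no fold is given. Among the ligands, then, Ostn was bright on 1 array, Nppa and Nppb were within 1.5-fold, and Nppc was not measured.

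The 3 receptors also differed from one another. Npr1, the cyclase receptor of ANP and BNP, gave 0.949 ± 0.947 and 0.964 ± 0.960 and was well above background on neither array, as were 28.5% of all genes. Npr2, the cyclase receptor of CNP (NM_173788, mm9 chromosome 4, 43664035 to 43664094), gave 3640 ± 364 and 3547 ± 355. Its log2 difference was -0.29 ± 0.20, or 1.23-fold lower on the deficient array, against a median of -0.10 over all 19816 measured genes. With spike-in scaling it was -0.022.

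Npr3, the clearance receptor (NM_008728, mm9 chromosome 15, 11769937 to 11769996), was higher on the deficient array. Its intensity was 599 ± 59.9 there and 112 ± 11.2 on the sufficient array, and both spots were well above background. The scaled log2 levels were -1.43 and -3.51, a difference of 2.09 ± 0.20, or 4.25-fold. The difference exceeds the reading error, but the spread between cultures is unknown. The fold ran from 2.94 after normexp correction to 5.13 with spike-in scaling, and was higher on the deficient array in each alternative. Among all measured genes 275 (1.39%) were at least as much higher on that array as Npr3.

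Of the 7 members 4 were measured on both arrays, as were 66.9% of all genes. Of these 4, 1 was at least 1.5-fold higher on the deficient array and 0 were lower. Over all measured genes 14.8% were higher and 14.1% lower by this size, 28.9% in all, so a count of 1 in 4 says nothing particular of the family. At 2-fold the members' counts were again 1 and 0, against 7.67% and 3.88% of all measured genes. The median log2 difference of the 4 was -0.10, equal to that of all genes to this precision.

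**Figure D3:**
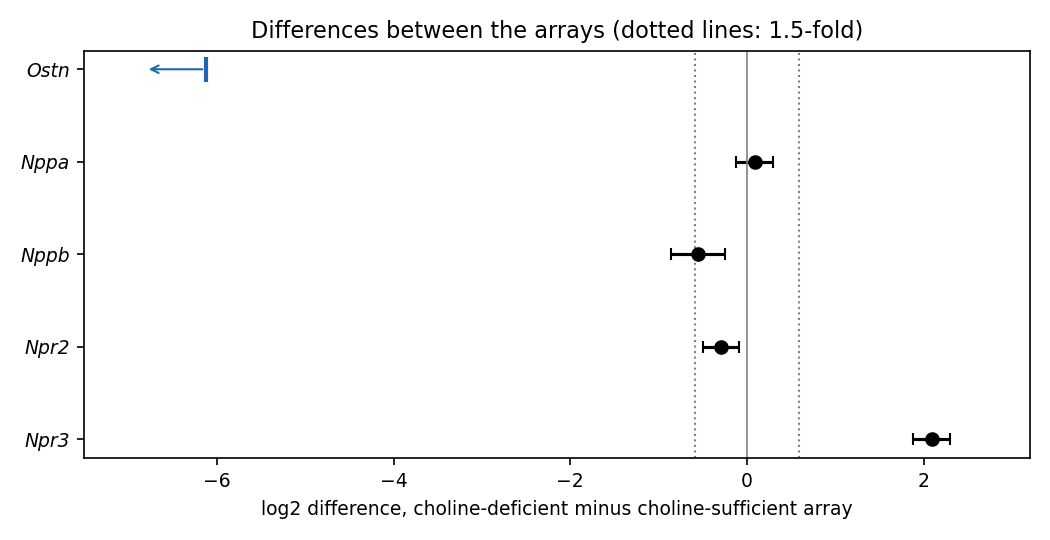
Log2 difference (deficient minus sufficient array) of the 5 members well above background on at least 1 array, with the scanner software's error as bars; the mark and arrow of Ostn are a bound. Npr3 lay at 2.09 and the Ostn bound at -6.12, while Nppa, Nppb and Npr2 lay inside the dotted 1.5-fold lines.

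The genes around the pathway were taken from 8 lists of 73 genes, of which 48 were measured on both arrays. Of these 10 were at least 1.5-fold higher on the deficient array (20.8%) and 8 lower (16.7%), near the 14.8% and 14.1% of all genes. Their median log2 difference was 0.03, against -0.10 over all genes. These lists as a whole therefore stood close to the background, and the values below describe single genes. Of the 18 genes 9 were no longer 1.5-fold apart after normexp correction, namely Cnga2, Gucy1a2, Gucy2c, Mef2b, Mef2c, Mylk, Pde6a, Pde6h and Prkg1. With spike-in scaling 5 were not, namely Cnga2, Furin, Gucy2c, Mef2b and Prkg1. Gucy1a2 and Pde5a were not when the brightest probe stood for the gene.

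Natriuretic precursors are cut by the proteases corin and furin, and the peptides are destroyed by neprilysin, the product of Mme, and by the insulin-degrading enzyme. Mme was 8.66-fold higher on the deficient array, with a log2 difference of 3.11 ± 0.22 and its 2 probes at 3.08 and 3.14. Its mean intensity was 183 on that array and 16.8 on the other. The fold of Mme was 2.69 after normexp correction. Furin was 1.57-fold lower (-0.65 ± 0.20). Corin, Pcsk6 and Dpp4 were well above background on neither array. Ide, the gene of the insulin-degrading enzyme, is the third measured gene of this list and lay within 1.5-fold (-0.39 ± 0.20). The median of the list was -0.39.

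Other guanylyl cyclases can supply the same messenger. Gucy1a2, a subunit gene of the nitric oxide receptor, was 1.81-fold higher on the deficient array (0.86 ± 0.26), with its 3 probes between 0.56 and 1.17, but 1.05-fold after normexp correction. Gucy2c, the intestinal guanylin receptor gene, was 1.65-fold lower (-0.72 ± 0.22). The main nitric oxide receptor subunits, listed on the array as Gucy1a1 and Gucy1b1, were well above background on neither array, nor were Gucy2f and Gucy2g. Of the 5 measured cyclase activators and nitric oxide synthases 0 were 1.5-fold apart, against 28.9% of all measured genes. Guca1a, a photoreceptor cyclase activator gene, was well above background on the deficient array only, with a bound of 1.06-fold. Guca2b was so on neither.

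Phosphodiesterases break cGMP down, and 3 of 11 measured genes of this list were higher on the deficient array and 1 lower. The shares over all measured genes were 14.8% and 14.1%. Pde2a, whose enzyme is itself activated by cGMP, was 2.98-fold higher (1.57 ± 0.20) at intensities of 1565 and 418. Pde5a, the target of sildenafil, was 2.45-fold lower (-1.29 ± 0.26), though its 2 probes differed by -2.18 and -0.41, and it was at -0.59 in log2 after normexp correction. Pde6a, a rod phosphodiesterase gene, was 1.95-fold higher at low intensities of 40.4 and 16.4, and 1.11-fold after normexp correction. Pde9a was well above background on the deficient array only, with a bound of 1.35-fold. Pde6c, the cone enzyme gene, was so on the sufficient array only, with a bound of 2.98-fold. Pde1c, Pde6b and Pde10a were well above background on neither.

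The cGMP kinases and their partners went both ways, with 3 of 7 measured genes higher and 2 lower. Over all measured genes the shares were 14.8% and 14.1%. Prkg2, the type II cGMP kinase gene that acts downstream of NPR2 in cartilage, was 2.15-fold higher on the deficient array (1.11 ± 0.20) at intensities of 23098 and 8537. Rgs2, a G-protein regulator gene that the type I kinase acts on, was 2.62-fold higher (1.39 ± 0.21). Kcnma1, the gene of a potassium channel opened through that kinase, was 2.98-fold lower (-1.57 ± 0.26), with 3 probes between -2.81 and -0.82, and 1.74-fold lower after normexp correction. Prkg1, the type I kinase gene, was 1.60-fold lower (-0.68 ± 0.20), and is named after its value was seen. The 2 kinase genes thus differed in opposite directions. Mrvi1, a partner of the type I kinase, was well above background on the deficient array only with a log2 bound of 0.59, and Rgs4 on neither.

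Among channels and exporters 0 of 4 measured genes were higher and 2 lower on the deficient array. Of all measured genes 14.8% were higher and 14.1% lower. Abcc4, an exporter of cyclic nucleotides, was 2.52-fold lower (-1.33 ± 0.20) at intensities of 7333 and 14672. Cnga2, the olfactory channel gene, was at -0.59 ± 0.23 in log2, just past 1.5-fold lower, and at -0.37 after normexp correction. Cnga3, the cone channel gene, and Cnga4 were well above background on the deficient array only, with bounds of 1.22-fold and 1.27-fold. Cnga1 and Cngb3 were so on neither. NPR3 signals through inhibitory G proteins, and of their 3 genes 2 were measured and lay within 1.5-fold. The third, Gnai1, was well above background on the sufficient array only, with a bound of 2.43-fold higher there. It was dim on both, at 4.60 on the deficient and 8.89 on the sufficient array.

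**Figure D4:**
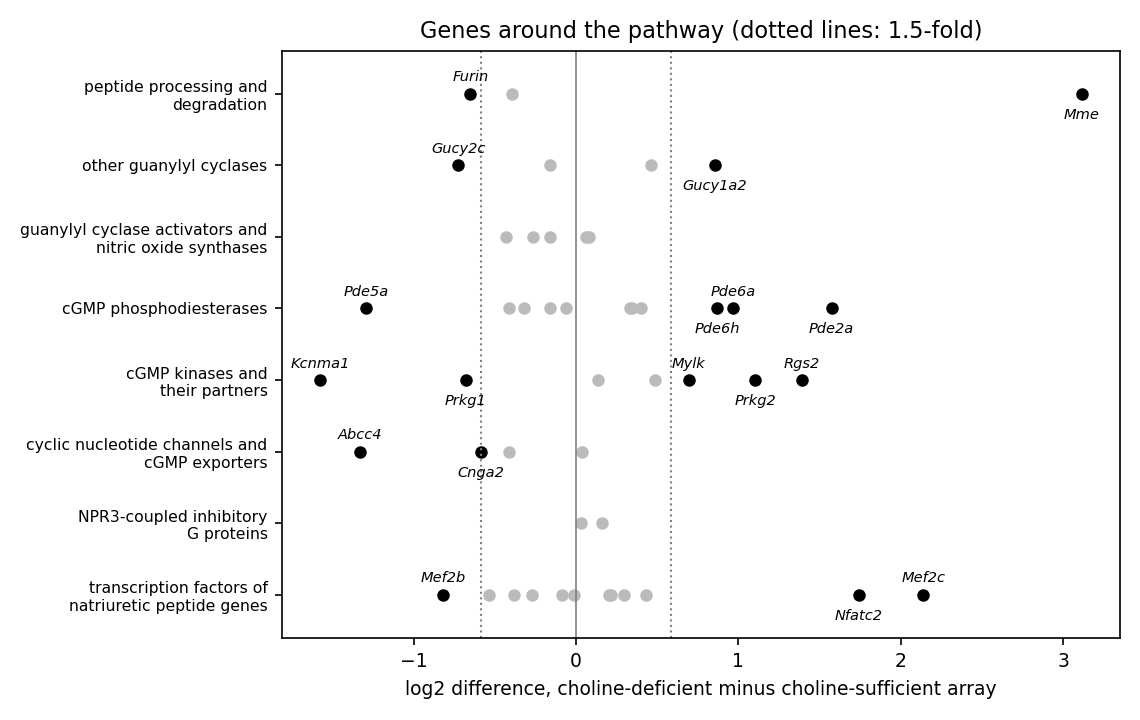
Log2 difference (deficient minus sufficient array) of the 48 measured genes of the 8 lists around the pathway, 1 point per gene; black points are at least 1.5-fold apart and named. Points lie on both sides of 0 in most lists, with Mme at 3.11 and Kcnma1 at -1.57 as the extremes.

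Of the transcription factors known at natriuretic peptide genes and in muscle, 12 of 16 were measured, with 2 higher on the deficient array and 1 lower. Of all measured genes 14.8% were higher and 14.1% lower. Mef2c was 4.40-fold higher (2.14 ± 0.25), with intensities of 54.4 and 9.82. Nfatc2, a calcium-responsive factor gene, was 3.34-fold higher (1.74 ± 0.21) on 1 measured probe of 2. With no filter on dim probes the log2 difference of Nfatc2 was 0.66. Both Mef2c and Nfatc2 were smaller after normexp correction, at 1.32-fold and 1.52-fold. Mef2b was 1.76-fold lower (-0.82 ± 0.21). The cardiac factor genes Tbx5, Tbx20 and Hand2 and the smooth muscle co-activator gene Myocd were well above background on neither array. Other cardiac factor genes were measured on both and lay within 1.5-fold. On the deficient and sufficient arrays Gata4 was at 1506 and 1563, Gata6 at 301 and 242, and Nkx2-5 at 8.50 and 5.50.

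The labelled cell type was checked against 15 cone and photoreceptor markers. Of these 8 were measured on both arrays, 3 were at least 1.5-fold higher on the deficient array (37.5%, against 14.8% of all measured genes) and 0 lower (against 14.1%). Thrb was 2.26-fold, the cone phosphodiesterase gene Pde6h 1.83-fold and the cone transducin gene Gngt2 1.65-fold higher. Thrb and Pde6h each rested on 1 measured probe of 2. After normexp correction Thrb was 1.11-fold and Gngt2 1.41-fold higher, and Pde6h turned to -0.12 in log2. The photoreceptor factor genes Crx and Nrl and the genes Rcvrn, Opn1sw and Cngb3 were well above background on neither array. The photoreceptor factor gene Otx2 was measured on both, at intensities of 44.7 and 37.6, and lay within 1.5-fold. So did Gnat2, Arr3, Opn1mw and Gnat1. The list's summed intensity was 762 on the deficient and 427 on the sufficient array, of which Gnat2 made up 366 and 197 and Gngt2 254 and 122. The part of this cell type in the differences of the natriuretic members was not tested. Across the arrays 70.7% and 68.5% of spots were well above background and 0 were saturated.

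**Figure D5:**
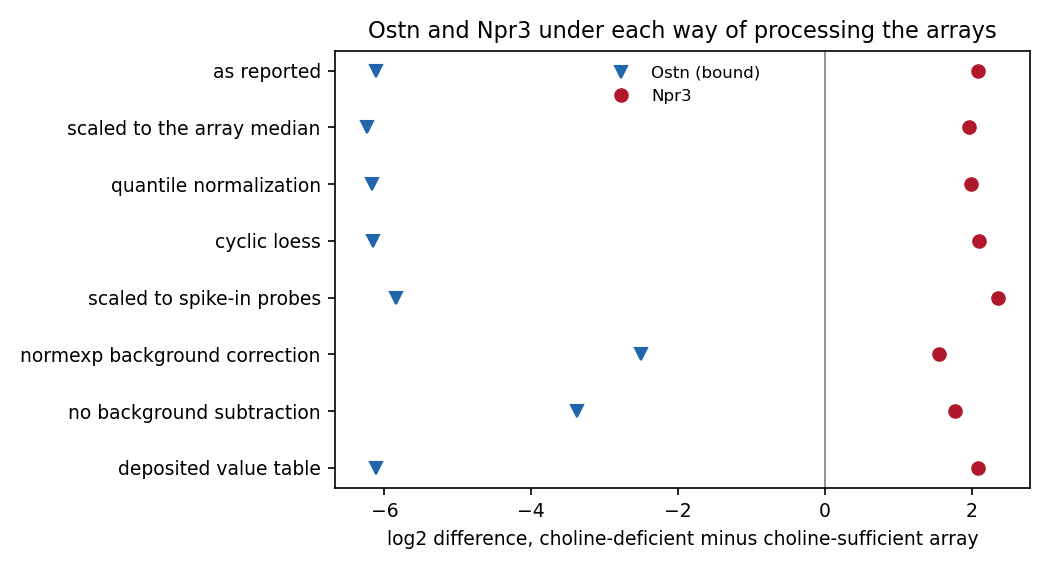
Log2 difference (deficient minus sufficient array) of Ostn, as a bound, and of Npr3 under the reported processing and 7 alternatives. Ostn lies below 0, as its bound must by definition, and Npr3 lies above 0 in all of them. The sizes were smallest after normexp correction, 5.70-fold and 2.94-fold.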

How the data were processed

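Each array had 1 scanner file, which the authors deposited; the submitters' processing notes name Feature Extraction 12.1.1.1. Its values are intensity: per the file headers, each processed signal had its background removed and was detrended, and arrays were not normalized to each other. The deposited value table holds a ratio, that signal over a constant of each array. Per the file headers, positions refer to mm9.

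Control and outlier spots (92 and 86) were left out, levels were log2 of the processed signal less the 75th percentile on that array, and spots of a probe, then measured probes of a gene, were averaged. A probe was measured when most of its spots were well above background and 0 were saturated on both arrays. Errors were propagated from the processed error. Genes were called at 1.5-fold, with no test. The accessions of all 7 members matched the same symbol in RefSeq (GRCm38.p6). The members and lists were chosen with earlier results of these data known. Genes were named by rule: all members, up to 3 called genes per list with the largest difference, those on 1 array only, defining markers on neither array, and the 5 genes with a gene symbol (no gene-model names or probe IDs) most like Ostn. A marker of the cone and photoreceptor list is not reported here. Other genes were named outside this rule, among them Alpl, Bglap2, Ide, Gata4, Gata6, Nkx2-5, Otx2, Gnat2, Arr3, Opn1mw, Gnat1, Myod1, Myog and Prkg1. The spots and genes beside Ostn and Npr3 and the sequence search were added after the values were seen. The scripts (R 4.3.3, limma 3.58.1, Python 3.11.15, pandas 2.3.3) were tested on simulated data.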

Additional observations from a re-analysis of the deposited data

How the results depend on the processing

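With 1 array per group no replicate could be left out, and no test across samples was possible. No paired analysis was possible because each group holds 1 array. The bound of Ostn lies below 0 by its definition, so the 8 alternatives do not test its direction. The ratio of the signals as given repeats the reported value. The log2 bound of Ostn was -3.37 without background subtraction and -2.51 after normexp correction, and otherwise moved by less than its error. Npr3 kept its direction in all 9, at 2.36 with spike-in scaling (5 probes), 1.77 without background subtraction and 1.56 after normexp. The settings with no filter and with the brightest probe repeat its reported value, because Npr3 has 1 probe. The deposited value table repeats it too, as the same signal over a constant of each array. Scaling to the array median or to spike-in probes shifts all genes alike, by too little here to turn the direction of Npr3. With spike-in scaling Nppa was at 0.36 and Npr2 at -0.022, and Nppa was at -0.17 after normexp, so Nppa has no settled direction. The all-gene median shifted by 0.27 under spike-in scaling and by -0.12 under median scaling. Nppb passed 1.5-fold with median scaling and with quantile normalization, which gave 1 lower member in place of 0. The count was also 1 with no filter on dim probes, where Ostn enters.

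Of the genes around the pathway, 10 were higher and 8 lower as reported. The counts were 16 and 3 with spike-in scaling, which moved the median of all genes by 0.27 as well. They were 5 and 4 after normexp and 6 and 5 without background subtraction. At 2-fold they were 6 and 3, against 7.67% and 3.88% of all measured genes. These counts are of the 48 measured genes. With no filter they were 18 and 12, over all 73 genes of the lists. For settings other than 2-fold, shares over all genes were not worked out. Of 252 values of single list genes 178 stayed within the error, 73 moved beyond it, and 1 reversed, Pde6h at -0.12 after normexp. Of 99 list medians 26 moved beyond the typical error. Dim spots limit Nppb, Nppc, Npr1 and the lower side of Ostn.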

Other observations

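The genes that lie beside Ostn and Npr3 were read for comparison, in the order of protein-coding genes in RefSeq (GRCm38.p6), with 3 on each side. Beside Ostn, Tmem207, Gmnc, Uts2b and Fgf12 were well above background on neither array, as were 28.5% of all genes. Il1rap, the co-receptor gene of interleukins 1 and 33, had a log2 difference (choline-deficient minus choline-sufficient array) of 0.69 ± 0.25, or 1.62-fold, and Ccdc50 differed by -0.44 ± 0.20. Of the 6 genes beside Npr3, 5 were measured on both arrays, with log2 differences from -0.56 for Zfr to 0.13 for Rxfp3. Of these 0 were 1.5-fold apart, against 28.9% of all measured genes. Adamts12 was well above background on the choline-deficient array only, with a bound of 1.21-fold. No measured neighbour of Npr3 was as far apart as Npr3 at 4.25-fold. Only 1.39% of all measured genes were at least as much higher, so this says nothing particular of the region.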
